A study of Macaca fascicularis with 64 samples.

Results

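β-cells of cynomolgus monkey islets were taken as the single cells whose dominant hormone transcript was insulin. A cell was retained when it held over 800 macaque genes and over 10000 unique molecular identifiers (UMIs, each marking 1 captured transcript). It was then counted as a β-cell when INS was the highest of GCG, INS, SST and PPY, reached at least 20000 CPM (counts scaled to a total of 1000000 macaque UMIs per cell) and was at least 2 times the second highest of the 4. This rule found 1086 β-cells among 5908 retained cells, themselves taken from 6141 picked cells. The same rule with the other hormones gave 4401 α-cells (GCG), 101 δ-cells (SST) and 58 PP-cells (PPY), while 238 cells had no hormone far enough ahead and 24 had none high enough.

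The cells came from pancreatic islets of 16 non-diabetic monkeys (Macaca fascicularis), with 4 young females, 4 young males, 4 old females and 4 old males. Young monkeys were 4 to 6 years of age and old monkeys 18 to 21 years, and the labels give no treatment or genetic change for any group. Cells were picked 1 by 1 with a mouth pipette, and their RNA was tagged with cell barcodes and UMIs in 64 libraries, 4 per monkey. Monkeys are named here by age (Y or O), sex (F or M) and number, so that YF2 is the second young female. Monkeys were the replicates in the tests below, except in 1 fit by library.

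β-cells are the islet cells that sense blood glucose and release insulin. Glucose enters through a transporter, is phosphorylated and metabolized, and the resulting ATP closes potassium channels, which depolarizes the membrane, opens calcium channels and drives the fusion of insulin granules. Insulin is made as a precursor that is folded and cross-linked by disulfide bonds in the endoplasmic reticulum (ER) and cut by prohormone convertases in the granule, so the cells carry a heavy load of secretory protein.

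All 4 hormones were used to choose the cells, and their levels are therefore given as a description. Mean INS per monkey ran from 59986 to 112723 CPM (median 78129) in β-cells, with OM3 lowest and YF2 highest, and from 1702 to 16550.3 CPM (median 6804) in α-cells. The lowest INS level of any β-cell was 22401 CPM, and the lowest ratio to the second hormone was 2.01 with a median of 3.46. Of the 1086 cells, 350 had a ratio between 2 and 3, 384 had one of at least 4 and 20 had one of at least 10. Just outside the rule stood 127 cells with INS highest but a ratio under 2 (the nearest at 1.996) and 6 cells with INS highest but below 20000 CPM (the nearest at 18698 CPM).

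GCG was the second hormone in 1085 β-cells and PPY in 1. Mean GCG per monkey ran from 16155 to 33301 CPM (median 22911) in β-cells, from 8137 to 39563 CPM (median 25661) in δ-cells, from 19763 to 42683 CPM (median 33042) in PP-cells and from 76756 to 126239 CPM (median 90567) in α-cells. The GCG levels of the 3 types other than α-cells overlapped each other. They lay under those of α-cells, a gap that the rule favours because it required another hormone to be at least 2 times GCG in them. Other α-cell transcripts stood at different shares of their α-cell level in β-cells. As a median over monkeys this share was 24.4% for GCG, 41.9% for TTR (the thyroid hormone carrier transthyretin), 14.0% for TM4SF4, 9.22% for GC and 6.99% for the transcription factor IRX2. The part of RNA from other cells in the GCG and TTR of β-cells was not tested. In the 200 retained cells with INS and GCG both high and neither 2 times the other, mean levels over cells were 62795 CPM for INS, 53337 CPM for GCG, 1289 CPM for IAPP and 436 CPM for SLC2A2. In β-cells averaged the same way IAPP was at 2654 CPM and SLC2A2 at 654 CPM, and in α-cells at 41.4 and 6.33 CPM, so the 200 cells lay between both types for these genes.

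β-cells numbered between 8 (YF2) and 189 (OF4) per monkey, or 2.11% to 50.3% of a monkey's retained cells (mean 18.4% ± 13.5, SD, n = 16), and all but 1 library of YF2 held some. Their summed counts ran from 358312 UMIs in YF2 to 18704217 in OF4, so the values of YF2 rest on the least depth. The 64 libraries used the same 96 barcodes, no 2 retained cells had identical counts, and doublets were not called. Spike-in RNAs held 5.41% of UMIs and were left out of CPM. Sums over the cells of a type entered a fit where a monkey had at least 5 such cells, which kept all 16 monkeys for β- and α-cells, and 11 (δ) and 5 (PP) for the rarer types. CPM levels are over all macaque genes, whereas fold changes come from edgeR fits made without the 4 hormones.

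The β-cell markers held for these cells. All 6 tested markers other than INS were higher in β-cells than in α-, δ- and PP-cells, in 16 of 16, 11 of 11 and 5 of 5 monkeys. ERO1B and TMEM132B were taken up as markers by the study on these same samples, so their direction is not independent evidence. IAPP, the amyloid polypeptide released together with insulin, ran from 905 to 4776 CPM (median 2499.8) in β-cells and from 9.05 to 131 CPM (median 34.1) in α-cells. Its log2 fold change over α-cells was 6.27 ± 0.26 (SE, n = 16, edgeR adjusted p = 1.52e-26). SLC2A2, the glucose transporter of the β-cell membrane, ran from 365 to 1150.4 CPM (median 693) in β-cells and from 1.22 to 20.4 CPM (median 6.46) in α-cells, with no overlap between the 2 types. Among called genes with at least 50 CPM in the higher type it had the largest rise over α-cells, at 7.14 ± 0.24, and its differences over δ-cells and PP-cells were 7.20 ± 0.33 and 6.19 ± 0.43.

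MAFA, a transcription factor that activates the insulin gene, had 11.4 to 223 CPM in β-cells and 0.429 to 22.5 CPM in α-cells, so the lowest β-cell monkey (YF3) overlapped the highest α-cell monkey (OF1). Its difference over α-cells was 4.71 ± 0.34. NKX6-1, a homeodomain factor needed for β-cell identity, was lowest at 15.9 CPM (median) in δ-cells, intermediate at 49.95 CPM in α-cells and highest at 199 CPM in β-cells. Its log2 fold change was 1.95 ± 0.22 over α-cells and 4.10 ± 0.32 over δ-cells. ERO1B, an ER oxidase that forms disulfide bonds, ran from 580.3 to 2064 CPM (median 1429) in β-cells, from 177 to 639 CPM (median 335) in δ-cells and from 55.1 to 323 CPM (median 108) in α-cells. TMEM132B, a transmembrane protein, rose by 5.75 ± 0.41 over α-cells and by 3.32 ± 0.48 over δ-cells, and its highest δ-cell monkey (0 to 134 CPM over the 11) lay inside the range of β-cells (78.7 to 355 CPM).

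**Figure D1:**
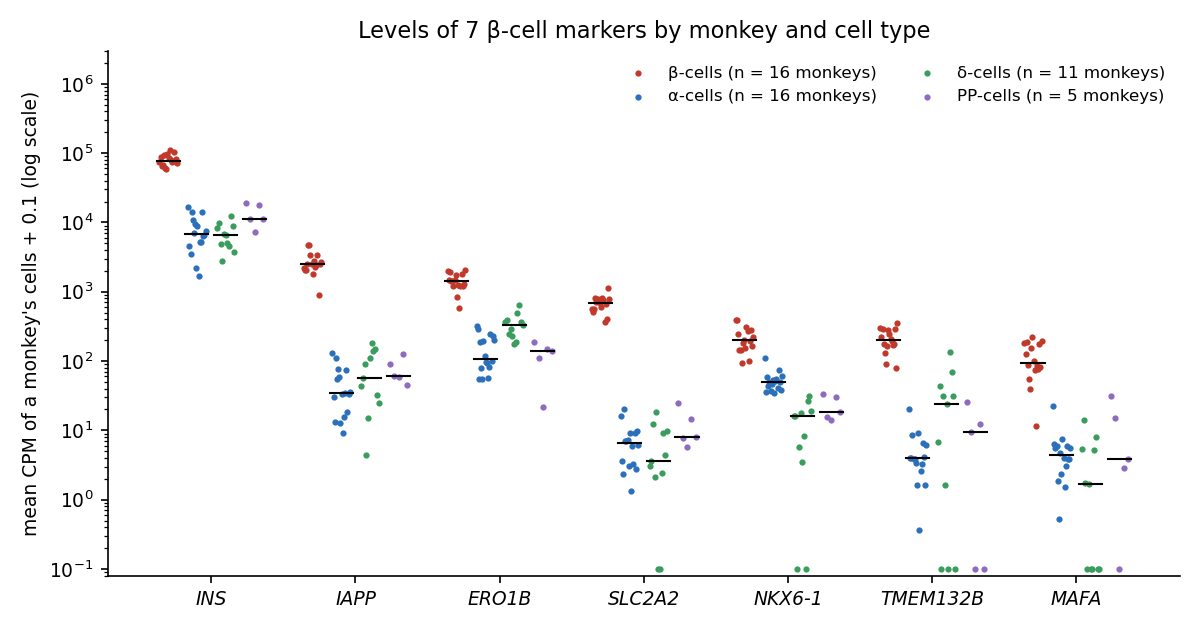
Mean CPM plus 0.1 (log scale) of the 7 markers, each point 1 monkey, for β- and α-cells of 16 monkeys, δ-cells of 11 and PP-cells of 5. INS was used to choose the cells; for SLC2A2 the β-cell monkeys sit between 365 and 1150.4 CPM and every α-cell monkey is at or under 20.4 CPM.

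After each cell was thinned to 10000 UMIs, SLC2A2 was detected in 89.96% of β-cells, 5.38% of α-cells, 8.91% of δ-cells and 10.3% of PP-cells. Before thinning these shares were 95.5%, 25.02%, 21.8% and 34.5%, at a median depth of 76826 UMIs in β-cells and 64894 in α-cells. MAFA was seen in 47.4% of thinned β-cells and 4.19% of thinned α-cells, and ERO1B in 99.4% and 53.8%. Whether the low shares of SLC2A2 and MAFA in the other types were expression or RNA from other cells was not tested.

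To ask how β-cells differ from the neighbouring α-cells of the same animals, the sums of both were compared across 13086 genes with the monkey as a block. A gene was called at an adjusted p under 0.05 and a log2 fold change beyond 1 in either direction. By this rule 711 genes were higher in β-cells (5.43% of those tested) and 2042 were lower (15.6%), and the median log2 fold change over all genes was -0.17. Counts for lists of genes below are to be read beside these shares. The excess of lower genes changed with depth and model. With cells thinned to 10000 UMIs, 566 were higher and 1027 lower of 9221, and with no replicate block 837 and 1538 of 13086. Within libraries, with the library in place of the monkey as the block, 534 genes were higher and 1655 lower of 10118 tested, in 51 libraries of 15 monkeys that held both types. Libraries of 1 animal are not independent, and this fit counts them as if they were.

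Among the 10 largest rises, TH, the enzyme that starts catecholamine synthesis, ran from 50.9 to 1127 CPM (median 191) in β-cells and from 0.0973 to 33.3 CPM (median 1.88) in α-cells (6.74 ± 0.37 on the log2 scale, edgeR adjusted p = 2.09e-21). All 16 monkeys had more TH in β-cells, although β-cell levels themselves spanned a wide range between monkeys. RGS16, which shortens signalling by G proteins, ran from 34.8 to 3009.7 CPM (median 1071) in β-cells against from 2.65 to 60.9 CPM (median 22.1) in α-cells (5.38 ± 0.34). The rest were LRRTM3, a leucine-rich repeat membrane protein (6.18 ± 0.44), CRYBG3 (5.49 ± 0.43), BEST3 of the bestrophin channel family (5.39 ± 0.44), ERICH5 (5.31 ± 0.31) and the tetraspanin TSPAN8 (5.24 ± 0.48), beside SLC2A2, IAPP and TMEM132B. Each of these 10 was higher in β-cells in 16 of 16 monkeys.

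ITPR1, an inositol trisphosphate receptor that releases calcium from the ER, had the largest fall at this level. It ran from 1.01 to 8.42 CPM (median 3.22) in β-cells and from 73.6 to 227 CPM (median 135) in α-cells, with no overlap (-5.43 ± 0.33, edgeR adjusted p = 9.96e-20). Its relative ITPR2 went the other way, from 0.732 to 153 CPM (median 80.8) in β-cells and from 0.451 to 7.41 CPM (median 2.62) in α-cells (4.82 ± 0.48, higher in 15 of 16 monkeys). The protease PAPPA2, which cleaves IGF-binding proteins, was at a median of 9.68 CPM in β-cells and 216 CPM in α-cells (-4.39 ± 0.24). Other named falls were IGSF21 (-5.18 ± 0.41), IMPG1 (-4.20 ± 0.38), the cysteine dioxygenase CDO1 (-4.10 ± 0.44), the calcium channel subunit CACNG4 (-4.08 ± 0.38) and the serine protease FAP (-4.05 ± 0.21), and 3 more of the 10 carry only an Ensembl identifier.

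Of 9 tested transcription factors linked to β-cells, 7 were higher in β-cells than in α-cells, 1 was lower and 1 was not called, with a median log2 fold change of 3.65. PDX1, a homeodomain factor of the pancreas that also drives insulin, had only 0 to 19.1 CPM in β-cells but at most 0.547 CPM in α-cells (5.32 ± 0.64). RXRG, a retinoid X receptor, ran from 125 to 231 CPM (median 177) and from 4.29 to 22.4 CPM (median 14.2) (3.65 ± 0.32). GLIS3 (3.97 ± 0.64), SIX2 (3.90 ± 0.51) and the developmental factor PAX4 (3.50 ± 0.81) also passed the test, at medians of 4.15, 10.1 and 0.966 CPM in β-cells. ST18 was lower (-1.07 ± 0.23) and HOPX had -0.05 ± 0.17.

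Of 6 tested α-cell factors 5 were lower in β-cells. IRX2 ran from 17.7 to 73.9 CPM (median 30.7) in β-cells and from 289 to 734 CPM (median 509) in α-cells (-3.88 ± 0.20), and FEV fell by 4.01 on the log2 scale (SE 0.33). Among 9 factors shared by all islet endocrine cells none was higher and 2 were lower, namely ISL1 (-1.09 ± 0.12) and HNF4A (-1.72 ± 0.38), with a median of -0.97.

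Genes of glucose uptake and metabolism were higher in 5 of 11 cases and lower in 2, with a median of 0.58. PFKFB2, which controls the pace of glycolysis, ran from 116 to 740.5 CPM (median 305) in β-cells and from 7.85 to 81.0 CPM (median 15.3) in α-cells (4.21 ± 0.25, edgeR adjusted p = 4.35e-20). Its relative PFKFB3 was lower (-2.58 ± 0.53), at a median of 0.672 CPM in β-cells. G6PC2, the islet glucose phosphatase, was called higher (6.39 ± 0.71) from 0 to 122 CPM in β-cells with a median of only 1.25 CPM, and 10 of 16 monkeys had more in β-cells. ME1, the cytosolic malic enzyme, rose by 1.62 ± 0.37 in 15 of 16 monkeys, and TXNIP, an inhibitor of thioredoxin that glucose induces, rose by 2.08 ± 0.42 in 12 of 16.

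Of 18 ion channel genes, 4 were higher and 8 lower in β-cells than in α-cells (median -0.74), beside 5.43% and 15.6% of all genes. Both subunits of the ATP-sensitive potassium channel were among the higher ones. ABCC8 ran from 389 to 2100.1 CPM (median 1258) in β-cells and from 219.6 to 1280.4 CPM (median 471) in α-cells, and all 16 monkeys had more in β-cells (1.17 ± 0.16), while KCNJ11 was sparse at 2.13 CPM (1.81 ± 0.67). TRPM5, a cation channel opened by calcium, had 1.68 to 29.1 CPM in β-cells and at most 0.343 CPM in α-cells (6.999 ± 0.627), and KCNMA1, the large-conductance potassium channel, rose by 2.90 ± 0.47. The lower channels included the calcium channel subunits CACNA1A (-2.09 ± 0.29), CACNA1C (-2.07 ± 0.59), CACNA1H (-1.55 ± 0.32) and CACNB2 (-1.08 ± 0.35). They also included the sodium channel SCN9A (-2.29 ± 0.44) and the potassium channels KCNH6 (-2.76 ± 0.39) and KCNK3 (-1.31 ± 0.29). CACNA1D, an L-type channel of β-cells, had -0.45 ± 0.34 and was not called.

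Receptors split evenly, with 4 of 15 higher, 4 lower and a median of -0.61, beside 5.43% higher and 15.6% lower of all genes. CASR, the calcium-sensing receptor, ran from 94.3 to 277 CPM (median 172) in β-cells and from 5.17 to 40.3 CPM (median 15.3) in α-cells (3.604 ± 0.267). GCGR, the glucagon receptor, ran from 7.53 to 110.5 CPM (median 31.2) and from 0.123 to 2.75 CPM (median 0.878) (4.89 ± 0.44), again without overlap. P2RY1, a receptor for ADP, rose by 6.90 ± 0.61 in 14 of 16 monkeys, and GLP1R, the incretin receptor, by 4.19 ± 0.75 although its β-cell level was only 0 to 7.03 CPM. GIPR (-1.90 ± 0.51), GPR119 (-2.97 ± 0.57), SSTR2 (-1.36 ± 0.51) and VIPR1 (-3.16 ± 0.53) were lower in β-cells.

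The 2 prohormone convertases differed in opposite directions. PCSK1, which cuts proinsulin, ran from 87.7 to 575 CPM (median 220.1) in β-cells and from 1.87 to 16.9 CPM (median 8.88) in α-cells (5.22 ± 0.27, edgeR adjusted p = 2.89e-22). PCSK2, which releases glucagon from its precursor, ran from 179 to 601 CPM (median 311) in β-cells and from 1188 to 3064 CPM (median 1978) in α-cells (-2.56 ± 0.12). Both were separated without overlap. Over the 8 processing genes 2 were higher, the other being the carboxypeptidase CPD (1.02 ± 0.19), and 1 was lower, with a median of -0.19. CPE, which trims the cut peptides, had 0.31 ± 0.13.

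Granule, peptide and exocytosis genes were mostly not called. Of 12 granule genes 1 was higher, VAT1L (5.31 ± 0.52), and 3 were lower, with a median of 0.20. The lower ones were chromogranin A (CHGA, -2.22 ± 0.18), secretogranin SCG2 (-1.35 ± 0.15) and PTPRN2 (-1.26 ± 0.21). SLC30A8, the zinc transporter of insulin granules, was at from 297 to 764 CPM (median 485) in β-cells and from 266 to 604 CPM (median 421) in α-cells (0.24 ± 0.15, not called). Among 15 exocytosis genes SYT13 was higher (1.90 ± 0.19) and SYT5 and RPH3AL lower, at a median of -0.23. These counts are close to the 5.43% higher and 15.6% lower over all genes. Of 7 peptide genes IAPP and DLK1 were higher and NPY (-3.45 ± 0.68), PYY (-3.11 ± 0.41) and GHRL (-1.27 ± 0.44) lower (median -0.28).

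Genes of protein folding in the ER were higher in 6 of 23 cases and lower in 1, PDIA5 (-1.35 ± 0.28), with a median of 0.69 that stood above the -0.17 of all genes. Besides ERO1B, the 6 were the co-chaperones DNAJB9 (1.84 ± 0.34) and DNAJC3 (1.55 ± 0.23), the disulfide isomerases PDIA4 (1.34 ± 0.27) and PDIA6 (1.04 ± 0.37), and CRELD2 (1.45 ± 0.53). DNAJC3 ran from 91.9 to 542 CPM (median 221) in β-cells and from 56.3 to 113 CPM (median 88.8) in α-cells, and all 16 monkeys had more in β-cells. The abundant chaperones HSPA5 and HSP90B1 were not called, at 0.50 ± 0.22 and 0.38 ± 0.18. Of 11 genes that mature β-cells are known to keep silent, 1 was higher and 2 lower, beside 5.43% and 15.6% of all genes. The lower ones included the thioesterase ACOT7 (-3.06 ± 0.23), and the higher one was IGFBP4 (2.14 ± 0.56). IGFBP4 was higher in the β-cells of every old monkey, but lower in those of YF1, YF2, YF4 and YM3 (0 against 8.00 CPM in YF2). Its β-cell level also differed with age, as given below.

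All 8 tested immediate-early genes, which respond to stimulation and to handling of cells, were lower in β-cells than in α-cells (median -2.42). FOS ran from 72.8 to 474 CPM (median 218) in β-cells and from 429.7 to 2124 CPM (median 1362) in α-cells (-2.40 ± 0.18), EGR1 differed by -2.11 ± 0.18 and NR4A1 by -2.45 ± 0.14. Their summed level was 703 CPM in β-cells and 3446 CPM in α-cells as a mean over monkeys. The part of handling in this gap was not tested.

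Of 11 α-cell marker genes other than GCG, all 11 were lower in β-cells (median -3.56). Markers of further cell types were scarce. The summed level per monkey of 6 listed acinar genes was 0 to 98.0 CPM in β-cells (median 1.13), that of 8 ductal genes 6.37 to 89.8 CPM, of 7 stellate genes 0.148 to 128 CPM, of 6 endothelial genes 0 to 56.6 CPM and of 7 immune genes 6.89 to 85.6 CPM. Tested against α-cells, none of these genes was higher, and 1 of 5 acinar, 3 of 6 ductal, 4 of 7 stellate, 0 of 6 endothelial and 0 of 7 immune genes were lower. Over all genes 5.43% were higher and 15.6% lower.

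**Figure D2:**
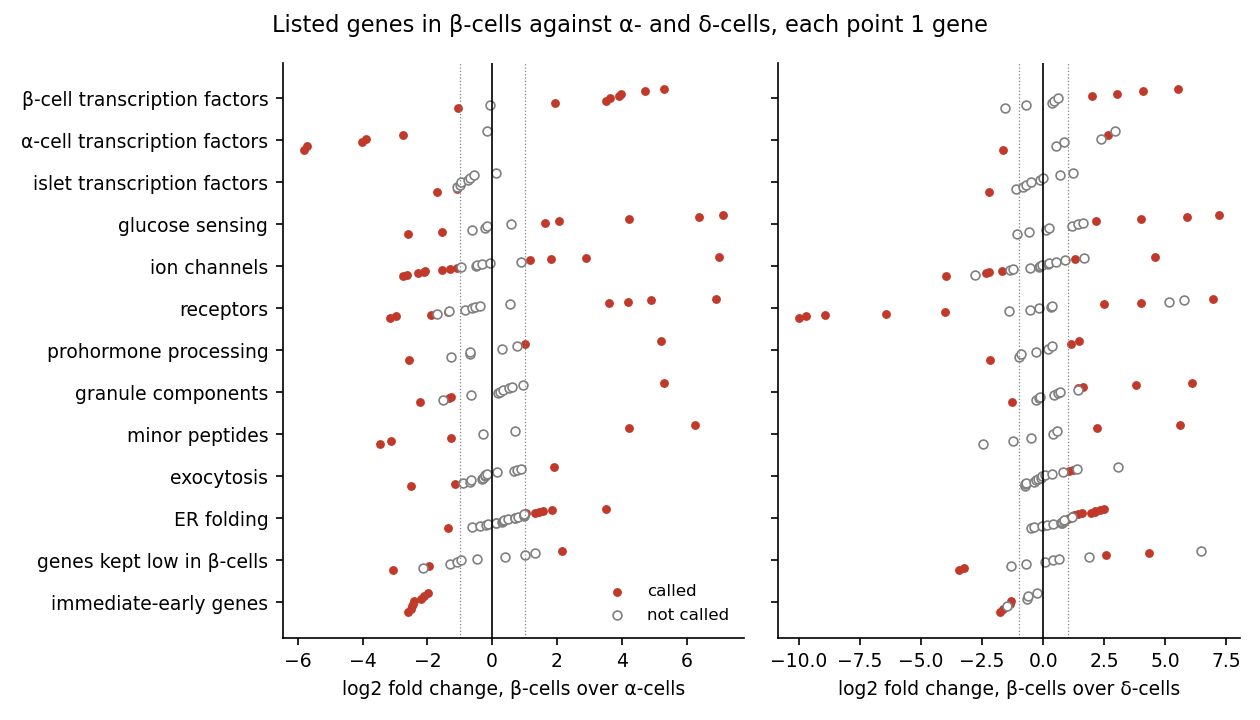
Log2 fold change of each tested listed gene, β-cells over α-cells (left) and over δ-cells (right), grouped by role; filled points were called, open points were not. β-cell factors lie mostly right of 0 and immediate-early genes left of 0 in the α-cell panel.

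Against the δ-cells of 11 monkeys, 1509 genes were higher in β-cells (11.5%) and 591 lower (4.52%), with a median over all genes of 0.39. These counts changed with the model: with DESeq2, which scales and models counts differently, the median was -0.04 and the split 1084 higher to 1130 lower of 13086, and edgeR with no replicate block gave 1388 to 1198 at a median of 0.12. SLC10A4 (-9.39 ± 0.62), SEMA3D, HHEX (-9.37 ± 0.56), RBP4 (-9.09 ± 0.28) and LEPR (-8.92 ± 0.48) had the largest falls among genes of at least 50 CPM in the higher type. SEMA3D was at 0 in the β-cells of 13 monkeys and at 0.187 CPM or less in the rest, against a median of 52.2 CPM in δ-cells. HHEX, the factor that sets δ-cell identity, ran from 0 to 1.76 CPM (median 0.280) in β-cells and from 60.9 to 967 CPM (median 347) in δ-cells, and RBP4, a retinol carrier, from 2.15 to 25.5 CPM (median 12.3) and from 1935 to 12826 CPM (median 7369). Neither pair of ranges overlapped.

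The largest rises over δ-cells were LRRTM3 (8.11 ± 0.86), ITPR2 (7.30 ± 0.83), SLC2A2, BEST3 (6.83 ± 0.76) and PPP1R1A, an inhibitor of protein phosphatase (6.16 ± 0.38). PPP1R1A ran from 139 to 971 CPM (median 327) in β-cells and from 0 to 25.8 CPM (median 5.16) in δ-cells. Some genes that set β-cells apart from α-cells did not pass the test against δ-cells: PDX1 had 0.59 ± 0.83, PCSK1 -0.27 ± 0.28, CASR 0.34 ± 0.29, GCGR -0.18 ± 0.49, CRYBG3 0.36 ± 0.43 and ERICH5 0.38 ± 0.32. SLC30A8 was the reverse case, higher over δ-cells by 3.82 ± 0.21 (edgeR adjusted p = 1.18e-20) and not called against α-cells. The difference between both contrasts was not tested, and they share the same β-cells.

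By role, 4 of 9 β-cell factors were higher than in δ-cells (median 0.59), as were 4 of 11 glucose genes (1.42) and 4 of 12 granule genes (0.64). DESeq2 gave 3 of 9 (0.29), 3 of 11 (0.94) and 4 of 12 (0.25). ER folding genes were higher in 12 of 23 cases and lower in 0 (median 1.05), and in 7 and 0 with DESeq2 (median 0.76), with PDIA4 at 2.32 ± 0.36, CRELD2 at 2.47 ± 0.77 and HSPA5 at 1.05 ± 0.26. Immediate-early genes were lower in 4 of 8 cases (-1.33) and higher in 0, and 5 of 8 were lower with DESeq2 (-1.58). Channels were lower in 4 of 18 cases and higher in 2 (-0.14), and 6 were lower with DESeq2 (-0.45). Of 15 receptors 3 were higher and 5 lower (-0.18), among them the ghrelin receptor GHSR and the fatty acid receptor FFAR4. Both were at 0 in the β-cells of 14 monkeys, and at medians of 32.6 CPM (GHSR) and 48.8 CPM (FFAR4) in δ-cells.

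PP-cells entered with 5 monkeys only, and 912 genes were higher in β-cells (6.97%) and 688 lower (5.26%), at a median of 0.30 over all genes. With DESeq2 the median was -0.01 and the split 1084 to 1197. CRYBG3 (7.66 ± 1.11), DOCK2, an activator of the GTPase Rac (7.14 ± 0.85), SLC2A2, ZBTB38 (5.72 ± 0.84) and PLCXD3 (5.65 ± 1.01) had the largest rises. DOCK2 ran from 47.6 to 228 CPM (median 90.5) in β-cells and from 0 to 1.41 CPM (median 0) in PP-cells. AKAP12 (-7.82 ± 0.80), PPP1R17 (-7.64 ± 0.67), UGT2B20 (-7.54 ± 0.83) and the fibrinogen chain FGB (-7.13 ± 0.62) had the largest falls among genes with a symbol, and UGT2B20 belongs to a family of near-identical genes that may share reads. Of 9 β-cell factors 7 were higher than in PP-cells (median 3.68), of 11 glucose genes 5 (2.16) and of 23 ER folding genes 7 (0.70), and 7 of 8 immediate-early genes were lower (-2.90). With DESeq2 these counts were 6, 4, 6 and 8. ABCC8 (-0.10 ± 0.25) and CPE (0.13 ± 0.20) had small differences that were not called.

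The number of UMIs per cell, not scaled to the spike-in RNAs, was compared within monkeys. The median number of macaque UMIs per β-cell ran from 32625 to 106436 (median 76524) and per α-cell from 39329 to 89500.0 (median 63789). The log2 ratio of β- to α-cells averaged 0.11 ± 0.33 (SD, n = 16) and was above 0 in 11 monkeys, which did not pass a two-sided exact sign-flip permutation test (p = 0.208). Without YF2, whose 8 β-cells are the fewest, it was 0.17 and passed (exact permutation p = 0.0210, n = 15). It turned to -0.54 with only cells whose first hormone was at least 4 times the second (exact p = 0.00226), so its direction depends on how dominant the hormone had to be. Under the main rule but with cells compared within libraries, the ratio averaged 0.06 and was above 0 in 9 of 16 monkeys (exact sign-flip permutation p = 0.474). Genes per cell were compared at an equal depth of 10000 UMIs that included the 4 hormones, so transcripts used by the rule took part of this depth. β-cells showed 122 ± 115 (SD) more genes per cell than α-cells, in 14 of 16 monkeys (exact sign-flip permutation p = 0.000793, n = 16). This difference was -37.5 genes at a hormone ratio of at least 4 (exact p = 0.425). The part of the hormones in it was not tested.

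To describe variation between cells within an animal, each cell was thinned to 10000 UMIs without the hormones, and phi was computed for each gene as the variance beyond counting noise, divided by the squared mean. At least 20 β-cells of that depth were required, which left out YF2, YF3 and OM4. As many α-cells were drawn from the same monkey, except in OF4, where 189 β-cells were set against the 171 α-cells of that depth. The median phi over genes ran from 0.343 to 2.50 (median 0.490) in β-cells and from 0.454 to 2.41 (median 0.666) in α-cells. Its log2 ratio averaged -0.34 ± 0.35 (SD, n = 13), with β-cells lower in 10 of 13 monkeys (two-sided exact sign-flip permutation p = 0.00537). At a hormone ratio of at least 4 only 5 monkeys had enough cells, and the mean was 0.06 (exact permutation p = 0.938).

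Gene by gene, 5 of 1470 genes were more variable in β-cells than in α-cells (0.340%) and 106 were less variable (7.21%) in limma on log2(phi + 0.05). ERO1B had the largest difference, with phi from 0.0803 to 0.702 (median 0.141) in β-cells and from 0.155 to 8.85 (median 0.791) in α-cells (-1.89 ± 0.26 on the log2 scale, lower in 13 of 13 monkeys). The next were APC, a regulator of Wnt signalling (-1.50 ± 0.30), the adaptor APPL1 (-1.44 ± 0.24) and the chloride transporter CLCN3 (-1.43 ± 0.29). ABCC8 (-0.75 ± 0.18) and the granule protein SCG3 (-0.70 ± 0.16) also varied less in β-cells. SMIM24 (1.3002 ± 0.206), MAGED1 (1.12 ± 0.32), the junction protein DSP (0.80 ± 0.24) and TM4SF4 (0.68 ± 0.16) varied more, and SMIM24 and TM4SF4 are α-cell markers, at 21.8% and 14.0% of their α-cell level in β-cells. The genes named above as less variable had more thinned UMIs in β-cells, such as ERO1B (16.6 per cell against 1.78 in α-cells) and APC (2.05 against 1.12). The more variable ones had fewer, such as SMIM24 (1.39 against 4.85) and MAGED1 (2.31 against 3.21). TTR went the other way, less variable (-0.62 ± 0.14) with fewer UMIs in β-cells (414 against 988). The part of expression level in these differences was not tested. With only cells whose first hormone was at least 4 times the second, and 5 monkeys, limma called 0 genes in either direction. Without OM3 or OF4 the less variable genes numbered 67 and 70, and without OF1 the more variable ones 3. Of the ER folding genes 1 of 8 was less variable and 0 were more variable, with a median of -0.34 beside -0.29 over all genes.

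**Figure D3:**
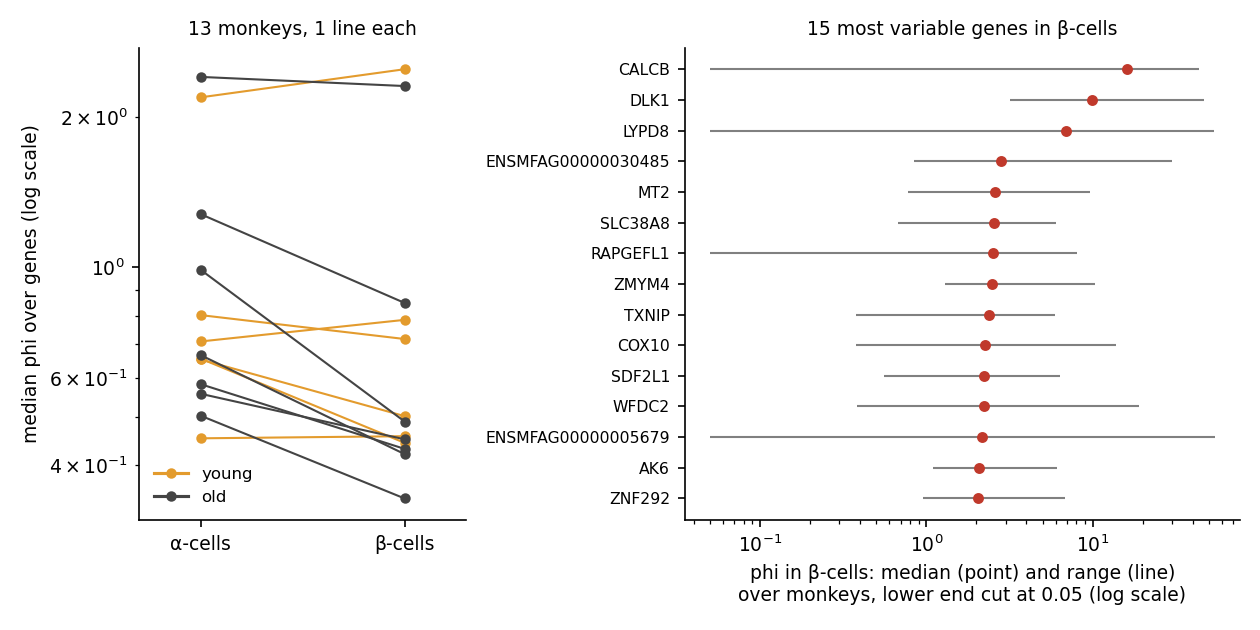
Left, median phi over genes (log scale) in α- and β-cells, lines joining the 13 monkeys, young in orange and old in grey. Right, the 15 genes with the highest phi among β-cells, point at the median and line from lowest to highest monkey; CALCB leads with 16.1.

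Over 1873 genes with at least 1 thinned UMI per cell on average, phi among β-cells had a median of 0.692 and quartiles of 0.416 and 0.999. INS itself, used to choose the cells, had a phi between 0.088 and 0.288 per monkey. CALCB, a calcitonin gene-related peptide, stood highest at 16.1, followed by DLK1, a Notch-related membrane protein (9.97), and LYPD8 (6.95). Phi ran from -0.673 to 43.9 over 13 monkeys for CALCB, from 3.18 to 46.7 over 7 for DLK1 and from -0.806 to 53.6 over 11 for LYPD8. These genes reached the floor as a mean over monkeys and were sparse in some. CALCB had 0.03 thinned UMIs per cell in YM4 and 5.88 in OF3, and LYPD8 had 0.04 in OF1 and 5.43 in YM1. In the median monkey the 10% of cells with the most held 96.1% of CALCB, 92.9% of DLK1 and 97.0% of LYPD8 UMIs. This share has to be 100% where under 10% of a monkey's cells had a UMI, as for CALCB in YM4. Where the most cells had the gene, it was 50% for CALCB (YM3), 80.8% for DLK1 (OF4) and 49.1% for LYPD8 (YM1). The high medians thus in part restate that few cells had a UMI of these genes. CALCB was detected in 3% to 39.1% of a monkey's thinned β-cells, LYPD8 in 0 to 56.5% and DLK1 in 0 to 39.2%, and the cell with the most CALCB held 110 UMIs of the 10000.

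CALCB and LYPD8 were also far higher in δ-cells. CALCB ran from 2.91 to 491 CPM (median 40.6) in β-cells, from 1.35 to 83.4 CPM (median 7.76) in α-cells and from 463 to 23489 CPM (median 3109) in δ-cells (-5.87 ± 0.39 against δ-cells). LYPD8 ran from 0 to 494 CPM (median 43.4) in β-cells and from 434 to 2129 CPM (median 1192) in δ-cells (-4.39 ± 0.57). For DLK1 the δ-cell levels, from 0 to 440.3 CPM (median 96.7), overlapped those of β-cells (from 0 to 1499.8 CPM (median 4.81)) and it was not called. The 9 δ-cell markers other than SST summed to 123 to 391 CPM in β-cells and to 2786 to 13958 CPM in δ-cells. Whether RNA of δ-cells had a part in these peaks was not tested.

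DLK1 differed between animals as well as between cells. No DLK1 UMI was found in the β-cells of YF2, YM3, YM4, OF1, OM2 and OM3, while OF3 had 1499.8 CPM, and among the 13 monkeys with enough cells 7 had any after thinning. The next most variable genes were one with only an Ensembl identifier (ENSMFAG00000030485, 2.80), the metallothionein MT2 (2.60), SLC38A8 (2.55), RAPGEFL1 (2.51), ZMYM4 (2.48) and TXNIP (2.38). COX10, SDF2L1, WFDC2, ENSMFAG00000005679, AK6 and ZNF292 closed the 15, between 2.26 and 2.05. SDF2L1, an ER protein of the folding list, was found in 17.5% to 96.9% of thinned β-cells per monkey.

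Few of the 15 genes moved together from cell to cell. The highest Spearman correlation over the cells of a monkey was 0.57 as a median of 13 monkeys, between ENSMFAG00000030485 and ENSMFAG00000005679, and each had 0.32 or 0.31 with MT2. Metallothionein genes are near-identical copies that may share reads, but neither of these 2 identifiers has a gene name here. Whether they belong to that family, and whether shared reads had a part in the correlations, was not tested. Correlations with a cell's UMI total had medians between -0.07 and 0.12. The pairs share a library and a depth, and these values are descriptions.

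The split of variance within and between animals was described for 1719 genes on log2(CPM/10 + 1) of thinned cells. These genes were chosen by their mean level in β-cells alone, with no floor in α-cells. Differences between monkeys held a median of 4.72% of the variance in β-cells and 2.77% in α-cells, and differences between libraries of a monkey 0.515% of the rest in β-cells. Mitochondrial COX2 had the highest share, 93.4% in β-cells and 92.4% in α-cells. CHGB, a granule protein, had 47.2% in β-cells and 13.9% in α-cells, TH 42.6% and 11.5%, the polyamine enzyme SAT1 41.2% and 4.13%, and TXNIP 40.1% and 4.03%. Among the markers IAPP had 32.1%, ERO1B 15.8%, SLC2A2 13.2%, MAFA 9.93%, NKX6-1 7.56% and TMEM132B 6.81%. The median over 13 ER folding genes was 15.8% in β-cells and 6.15% in α-cells. On the same scale TH averaged 3.71 in β-cells and 0.127 in α-cells, TXNIP 3.13 and 1.08, SAT1 3.68 and 2.20, and CHGB 7.35 and 6.40. The part of the choice of genes and of expression level in the gap between types was not tested. Both types come from the same animals, but the 16 monkeys differ in number of β-cells, and none of these shares was tested.

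**Figure D4:**
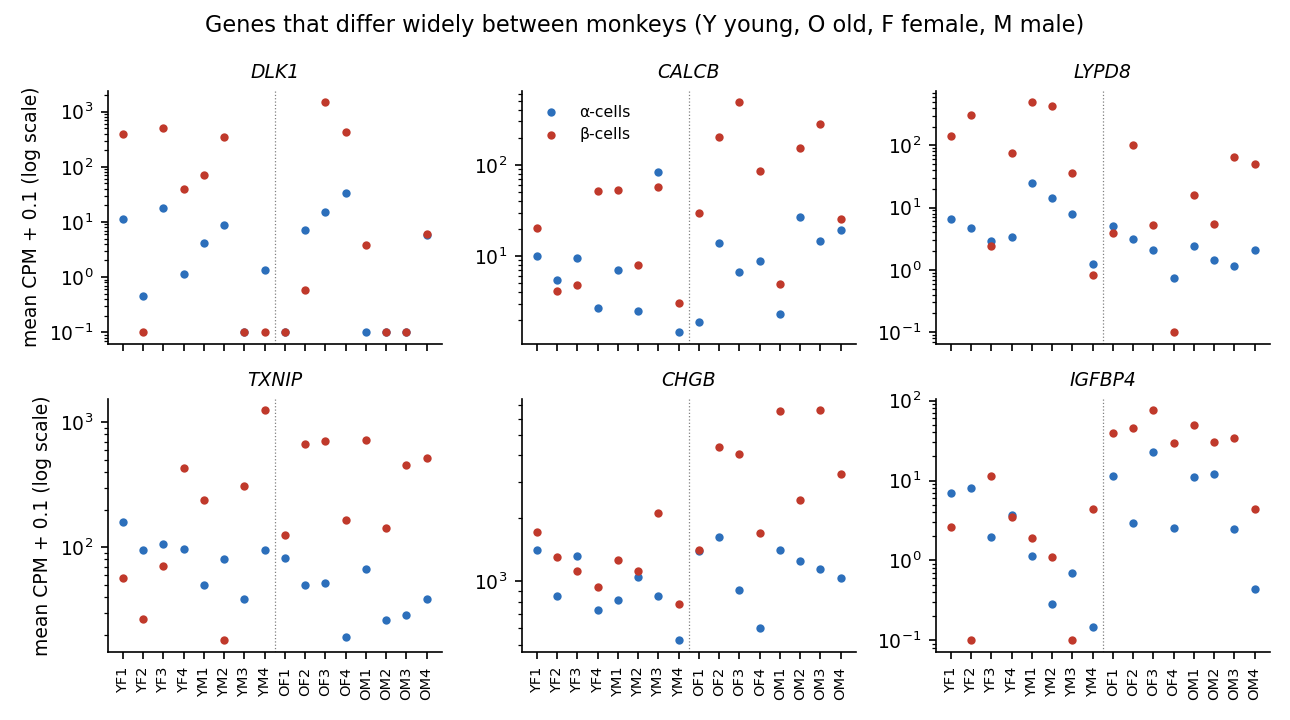
Mean CPM plus 0.1 (log scale) in the β- and α-cells of each of 16 monkeys for genes that differ widely between animals, with young monkeys left of the dotted line. DLK1 of β-cells is at 0 in 6 monkeys and at 1499.8 CPM in OF3.

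With age as the question, the share of β-cells among retained cells was 15.4% ± 11.6 (SD, n = 8) in young and 21.5% ± 15.3 in old monkeys. The difference of 6.14 percentage points did not pass an exact permutation test (two-sided p = 0.384). In females it was 18.3 points (exact p = 0.2, n = 4 and 4) and in males -6.0 points (exact p = 0.371), and the difference between both sexes was 24.3 points (exact permutation p = 0.0718). The hormones, given as a description, had medians of 80263 CPM in young and 70834 CPM in old monkeys for INS and of 26843 and 19565 CPM for GCG, with overlapping ranges.

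Across 10519 genes and with sex in the model, 3 genes were higher in old β-cells (0.0285%) and 1 was lower (0.00951%) by edgeR. IGFBP4, an IGF-binding protein, ran from 0 to 11.3 CPM (median 2.16) in the 8 young and from 4.37 to 75.4 CPM (median 36.6) in the 8 old monkeys, so that the ranges overlapped through OM4, the lowest old monkey. Its log2 difference was 4.07 ± 0.58 (edgeR adjusted p = 0.00240). SERPINA1, the protease inhibitor alpha-1 antitrypsin, ran from 9.34 to 61.8 CPM (median 27.3) in young and from 46.9 to 267 CPM (median 132) in old monkeys (2.24 ± 0.38, edgeR adjusted p = 0.0143). In α-cells SERPINA1 was higher in level, from 84.7 to 329 CPM (median 136) in young and from 118 to 865 CPM (median 247) in old monkeys.

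KIF26A, a kinesin family member, lay under the level set for naming genes and was chosen after its values were seen. It was at 0 in 7 young monkeys and at 4.23 CPM in YF4, and ran from 0.656 to 66.0 CPM (median 6.59) in old monkeys (5.03 ± 0.86). The gene with the lower level was ENSMFAG00000003105, from 2.99 to 171 CPM (median 32.7) in young and from 0 to 6.999 CPM (median 1.64) in old monkeys (-4.66 ± 0.81, edgeR adjusted p = 0.0143). CHGB ran from 781 to 2124 CPM (median 1194) in young and from 1415 to 6577 CPM (median 3659.6) in old monkeys and was not called (1.40 ± 0.29, edgeR adjusted p = 0.0888), whereas DESeq2 called it higher (DESeq2 adjusted p = 0.00526). Leaving out 1 monkey at a time gave 1 (without YF1 or YM2) to 5 (without OM4) higher genes. It gave 0 lower genes without YF1, YF3, YM2 or OM3 and 2 without YM3, YM4 or OM2.

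Neither the 6 markers nor the ER folding genes were called with age. Of the markers 0 of 6 passed by edgeR or by DESeq2 and 0 were at an unadjusted p under 0.05, at a median log2 difference of 0.12, with IAPP at 0.25 ± 0.22 and SLC2A2 at -0.04 ± 0.20. Of 23 ER folding genes 0 passed in edgeR, 10 were at an unadjusted p under 0.05 (beside 512 of all 10519 genes), and the median was 0.50, beside 0.01 over all genes, with SDF2L1 at 1.26 ± 0.37 and HSP90B1 at 0.73 ± 0.21. Of the 8 β-cell factors 0 passed (median -0.04), and of the 8 immediate-early genes 0 (median 0.06), with 0 of either list at an unadjusted p under 0.05.

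Whether age acted differently in β- and α-cells was tested by the interaction of type and age. By edgeR 0 of 13148 genes were called (0.00%), with 651 at an unadjusted p under 0.05, and DESeq2 called 6. The interaction of sex and age in β-cells gave 0 of 10519 genes (0.00%), 452 at an unadjusted p under 0.05, and 2 by DESeq2. In simulated counts with changes of 2 on the log2 scale, edgeR found 138 of 200 changed genes for type by age. For sex by age it found only 40 of 199, so the 0 calls there do not show that the sexes aged alike. The changed genes were drawn from those above a floor of counts, and smaller changes were not simulated. The 0 calls for type by age therefore do not show that β- and α-cells aged alike either. Among β-cells the median phi of old over young monkeys had a log2 ratio of -0.28 (exact permutation p = 0.550, n = 7 and 6).

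A further 3 differences between old and young monkeys were tested after the data had been seen. The β- over α-cell ratio of UMIs per cell was 0.32 on the log2 scale in old monkeys, all 8 of which were above 0, and -0.11 in young monkeys, 3 of which were above 0. The difference of 0.43 passed an exact permutation test over the 16 monkeys (p = 0.00202, 0.00606 adjusted over the 3). Whether it held within libraries was not tested. The surplus of genes per cell at equal depth, hormones included, was 184 in old and 60.2 in young monkeys (difference 123, exact permutation p = 0.0258, adjusted 0.0387). The log2 ratio of median phi was -0.52 in old and -0.13 in young monkeys (difference -0.39, exact permutation p = 0.0396, adjusted 0.0396). With only cells whose first hormone was at least 4 times the second, in 8 old and 7 young monkeys, the first of these differences was 0.09 (exact permutation p = 0.826) and the second 0.25 genes (exact permutation p = 0.987). At the ratio of 2, without single monkeys the first kept a p of at most 0.00404, while the second lost its call without YM3 or OF2 (exact p = 0.0516) or OM3 (0.0513). The third lost it without any 1 of YF1, YM2, YM3, YM4, OF2, OF4, OM1, OM2 and OM3 (exact p from 0.0519 to 0.0833).

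**Figure D5:**
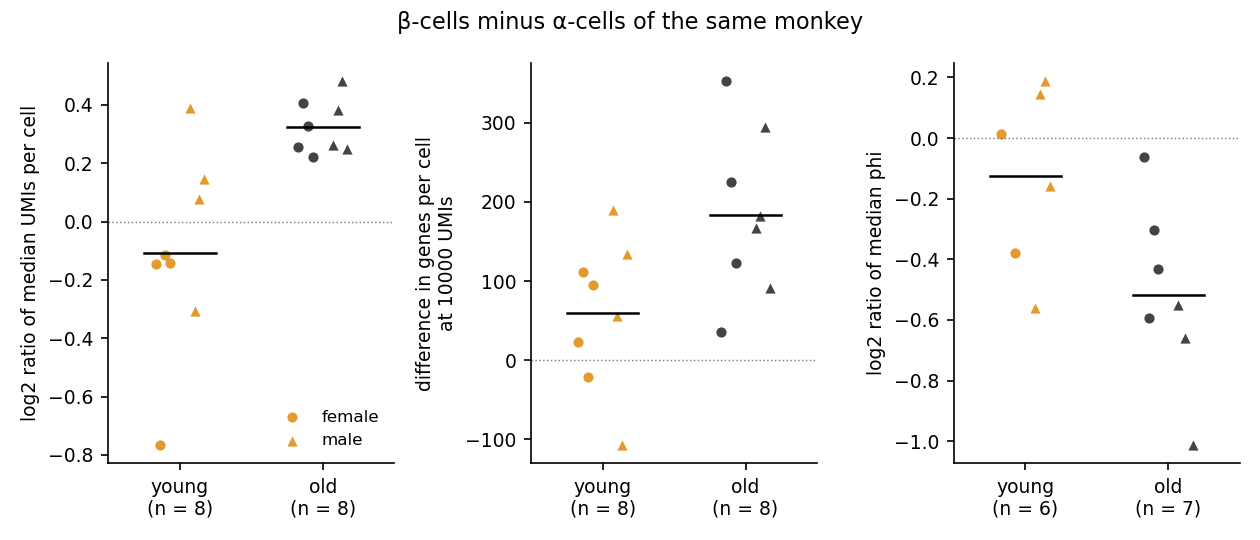
β-cell minus α-cell values of the same monkey for log2 UMIs per cell, genes per cell at 10000 UMIs and log2 median phi, by age group, circles female and triangles male; bars give the group mean. All 8 old monkeys lie above 0 for UMIs per cell, and 3 of 8 young monkeys do.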

How the data were processed

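Single islet cells of 16 monkeys were sequenced, and the authors deposited 1 table per library with UMI counts by gene and cell, not normalized. Per the submitters' processing notes and the study's methods, reads were handled with CASAVA 1.8 and TopHat2 2.0.12 on Macaca_fascicularis_5.0, and UMIs were counted once per gene and cell barcode. Monkeys were matched to libraries through the labels and the series' design text. ERCC and RGC spike-in rows were left out. Counts of each type were summed per monkey (at least 5 cells) without the 4 hormones, filtered with filterByExpr, scaled by TMM and tested with edgeR 4.0.16 (quasi-likelihood, Benjamini-Hochberg adjustment) with the monkey as a block, or with sex for age. Phi was tested with limma 3.58.1 and single values with exact permutation tests over monkeys. R 4.3.3, Python 3.11.15, numpy 2.4.6 and scipy 1.17.1 were used, and scripts were tested on simulated data. The monkeys are separate animals, but each sum pools 4 libraries of 1 animal, and cells were not taken as replicates.

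The members and gene lists were chosen with earlier results of these data known. Besides the listed genes, the text names the 10 (α) or 5 (δ, PP) largest differences each way among called genes of at least 50 CPM in the higher type. For variability it names the 15 genes with the highest phi and the 5 largest differences each way, and for age up to 5 called genes each way of at least 10 CPM. Alternatives were DESeq2 1.42.0, no filter on low counts, no replicate block, other cell filters, thinning, hormones kept, a stricter hormone ratio and leaving out each monkey. SE values come from the edgeR and limma fits over monkeys, and SD values are over monkeys. Detection shares are given without an error. Values of some listed genes are not reported here.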

Additional observations from a re-analysis of the deposited data

Results flagged for a closer look

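In 4 of 72 groups of 4 monkeys tested, 1 monkey stood far from the other 3. This is close to the 1 in 20 groups that chance alone gives, so the 4 are listed as descriptions. LYPD8 had been named for its high phi, and KIF26A and ENSMFAG00000003105 for an age call, in these same data. GCG, which was used to choose the cells, was in the β-cells of old females at 27931 CPM in OF2 and at 16155 to 17657 CPM in the rest. LYPD8 was at 101 CPM in OF2 and at 0 to 5.16 CPM in the other old females. KIF26A was at 4.23 CPM in YF4 and at 0 in the other young females, and ENSMFAG00000003105 was at 6.999 CPM in OM4 and at 0 to 0.50 CPM in the other old males.

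The difference between β- and α-cells of the same animal was not the same in old and young monkeys for 3 quantities, by an exact permutation test over monkeys that was added after the data had been seen. The old minus young difference was 0.431 for the log2 ratio of UMIs per cell (p = 0.00202), 123 for genes per cell at equal depth (p = 0.0258) and -0.391 for the log2 ratio of the median phi (p = 0.0396). With only cells whose first hormone was at least 4 times the second, the difference was 0.09 for UMIs per cell (exact permutation p = 0.826) and 0.25 for genes per cell (exact permutation p = 0.987), so neither was seen with the more strictly chosen cells.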

How the results depend on the processing

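The type counts against α-cells moved least: leaving out 1 monkey gave 617 to 724 higher and 1883 to 2083 lower genes, and of all settings only thinning to 10000 UMIs moved one past 1.5 times (1027 lower). Leaving out 1 monkey gave 1178 to 1504 higher and 537 to 664 lower genes against δ-cells, and 628 to 1015 and 575 to 714 against PP-cells. The lower genes numbered 1130 (δ) and 1197 (PP) with DESeq2, and 1198 and 1251 with no replicate block. At a hormone ratio of at least 4 there were 776 higher and 378 lower genes against δ-cells, and 4 named fold changes against δ-cells reversed: FOSB to 0.17, GLRA1 to 0.31, PPP1R17 to 5.24 and SMAD3 to -2.09. Of the other values of named genes 2112 kept direction and call, 191 lost the call and 1 gained it, and over single monkeys left out 4404 kept both and 234 lost the call.

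Age counts were unstable. Old β-cells had 14 higher and 5 lower genes with DESeq2, 7 and 5 with no filter, 1 and 0 at a ratio of at least 4, and 6 and 0 with a replicate block, and 0 lower when thinned or without cells above the 95th percentile of UMIs, and 2 lower with hormones kept. Without single monkeys they were 1 to 5 and 0 to 2. Genes whose age effect differed by type numbered 6 with DESeq2, 1 without cells above that percentile, 0 with a replicate block and 0 to 1 without single monkeys. Those that differed by sex numbered 2 with DESeq2, 1 with no filter, 0 with a replicate block and 0 to 1. The replicate numbers do not pair monkeys across groups (correlations of -0.082 to 0.066).

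More variable genes numbered 0 and less variable genes 0 with no replicate block and at a ratio of at least 4. The counts were 28 and 231 when thinned to 20000 UMIs, 0 and 63 within libraries, 2 and 64 with hormones kept, 3 and 164 without cells above the 95th percentile, and 41 less variable at a mean of at least 2 UMIs. They were 3 to 7 and 67 to 144 without single monkeys. The phi fits at a ratio of at least 10 could not be made.

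UMIs per cell (log2 ratio) turned to -0.544 at a ratio of at least 4 and to -1.28 at 10 (7 monkeys, exact sign-flip permutation p = 0.0156), and ran from 0.0829 to 0.166 without single monkeys, passing only without YF2 (exact permutation p = 0.0210). Genes per cell turned to -37.5 and -79.0 (exact permutation p = 0.594), were 122 with a permutation p of 0.246 with no replicate block, and ran from 107 to 137. The median phi ratio turned to 0.0605 at a ratio of at least 4, was -0.336 with a permutation p of 0.321 with no replicate block, and ran from -0.380 to -0.280. Its old over young ratio in β-cells turned to 0.224, and ran from -0.603 to 0.0804, the latter without YM3. The age difference in share ran from 2.03 to 8.64 points. The cause of these changes was not tested.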
